A study of Mus musculus with 10 samples.

Results

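The genes described here build and fill the chylomicron, the particle in which enterocytes export dietary fat. They were chosen by symbol from the deposited count table, and all 10 were found among its 13932 listed genes. Apoa1, Apoa4, Apoc3 and Apob encode apolipoproteins. Mttp encodes the large subunit of the microsomal triglyceride transfer protein. Mogat2, Dgat1 and Dgat2 encode acyltransferases of triglyceride synthesis, and Fabp1 and Fabp2 encode the liver-type and intestinal-type fatty acid binding proteins. All 10 passed the filter on low counts, as did 12477 genes in all.

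Total RNA was sequenced from intestinal epithelial cells of the mouse ileum, sorted as live cells without the leukocyte marker CD45 and with the epithelial marker EpCAM. The first group, dIEC, was 5 mice of genotype H2-Ab1 fl/fl; Villin:Cre+ (males 1, 3 and 5, females 7 and 9), in which Cre recombinase under the villin promoter of intestinal epithelium is directed at a floxed gene of the MHC class II beta chain. The other group, WT, was 5 mice of genotype H2-Ab1 fl/fl; Villin:Cre- (males 2, 4 and 6, females 8 and 10), which carried the same floxed gene without Cre. Each library came from 1 mouse. The genotypes are those of the sample labels, while the series text gives Cre- for both groups. The sources used here give no age, diet or feeding state, and effects of the deletion cannot be told apart from effects of Cre itself.

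In the enterocyte, fatty acids and monoglycerides taken up from the lumen are carried by fatty acid binding proteins and re-esterified at the endoplasmic reticulum. The monoglyceride route begins with MOGAT2 and ends with a DGAT enzyme. The transfer protein loads the triglyceride onto APOB as it is made, APOA4 and APOA1 join the growing particle, and APOC3 on the secreted particle slows its lipolysis. In the mouse these steps are known to be most active in the upper small intestine and on the villus, not in the crypt.

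H2-Ab1 had between 0.77 and 3.11 CPM (reads of a gene scaled to the library's TMM-adjusted total) in the 5 dIEC libraries and between 62.9 and 368 CPM in the 5 WT libraries, so the labels and the targeted gene went together (edgeR log2 fold change -6.39, SE 0.51, adjusted p = 0.000904). Totals per library ran from 9174101 to 13484363 counts in dIEC and from 9469663 to 12400180 counts in WT. The sorted cells had high levels of the epithelial marker list (9 of 9 genes tested, summed level 11124 to 17497 CPM in dIEC and 10879 to 14315 CPM in WT). Of 15 leukocyte markers 5 were listed and 2 passed the filter, with a summed level of 14.6 to 22.3 CPM in dIEC and 13.5 to 21.0 CPM in WT. Of 11 markers of stroma, endothelium and lymphatic vessels 5 were listed and 3 passed, with 11.7 to 18.8 CPM in dIEC and 9.41 to 15.9 CPM in WT. The defining leukocyte gene Ptprc was under 0.80 CPM in every library. Libraries differed widely in proliferation genes (26 of 26 tested), whose mean log2 CPM had its extremes among the dIEC females, at 2.92 in library 7 and 5.595 in library 9, while WT lay between 3.22 in female 10 and 5.13 in male 2. That axis runs with most of the genes below, and its values are given beside them.

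Some of the fat absorption genes were among the most abundant transcripts of these cells. Together the 10 genes took 2.35% to 5.46% of all counts in dIEC (median 3.92%) and 2.80% to 4.94% in WT (median 3.39%). Apob alone ranked between 1 and 5 of 13932 genes by count in every library, and Apoa1 between 3 and 8. Others ranked far lower, Dgat2 between 531 and 1088 and Apoc3 between 240 and 2313. Counts favour long genes, and Apob has 13934 bases of annotated exon against 1236 in Apoa1. Per kilobase of exon, the order of mean levels over the 10 libraries was Apoa1 with 7386 CPM per kb, Fabp2 with 6570, Apoa4 with 3278, Fabp1 with 1973, Apob with 920, Mttp with 528, Dgat1 with 323, Apoc3 with 298, Mogat2 with 296 and Dgat2 with 77.5. Neighbours in this order overlapped in their ranges over libraries, except Mogat2 and Dgat2. Apoa1 lay above Fabp2 in 8 of 10 libraries, Apoa4 above Fabp1 in 7 and Apoc3 above Mogat2 in 4. Between the pair of DGAT genes, which encode enzymes of the same reaction and whose exons have near-equal lengths of 3056 and 3083 bases, Dgat1 counts were 3.77 to 4.68 times Dgat2 counts in dIEC and 3.60 to 4.60 times in WT.

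The genes of APOA1, APOC3 and APOA4 are neighbours. Apoa1 (ENSMUSG00000032083; mm10 chromosome 9, 46228580 to 46230466, plus strand), Apoc3 (ENSMUSG00000032081; 46232933 to 46235636, minus strand) and Apoa4 (ENSMUSG00000032080; 46240696 to 46243459, plus strand) lie within 14880 bases. Dgat2 (ENSMUSG00000030747; chromosome 7, 99153658 to 99182719) and Mogat2 (ENSMUSG00000052396; chromosome 7, 99219084 to 99238619) belong to 1 gene family and lie on the same strand, 36364 bases apart. Apob (ENSMUSG00000020609) is on chromosome 12 at 7977648 to 8016835, and Dgat1 (ENSMUSG00000022555) on chromosome 15 at 76502015 to 76511953. Mttp (ENSMUSG00000028158; 138089854 to 138144968) and Fabp2 (ENSMUSG00000023057; 122895072 to 122899506) are both on chromosome 3, and Fabp1 (ENSMUSG00000054422) is on chromosome 6 at 71199827 to 71205023. An antisense gene, Gm10680, overlaps 34.8% of the Apoa4 exons, and the sources used here do not say how the counting used strand. Its 0 to 48 counts per library were at most 0.0533% of the Apoa4 counts.

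The stretches upstream of 5 of the genes are shown, as far as a promoter sequence was at hand. Their part in the levels of the genes was not tested. RefSeq (GRCm38.p6) held promoters for 6 of the 10 genes. The 250 bases before each RefSeq start were searched on both strands for an HNF4-type site, CAAAGTNCA, which 1.19% of 32851 RefSeq promoters hold, and for a direct repeat of the kind read by PPAR and RXR, a pair of AGGNCA letters with 1 base between them, which 0.338% hold. The printed runs, on the plus strand and 5′ to 3′, stop before the earliest annotated start of the gene, and capitals mark a match. They are chr9:46228380-46228579 for Apoa1, chr9:46240594-46240695 for Apoa4, chr12:7977427-7977647 for Apob, chr6:71199629-71199826 for Fabp1 and chr3:122894822-122895071 for Fabp2.
Apoa1: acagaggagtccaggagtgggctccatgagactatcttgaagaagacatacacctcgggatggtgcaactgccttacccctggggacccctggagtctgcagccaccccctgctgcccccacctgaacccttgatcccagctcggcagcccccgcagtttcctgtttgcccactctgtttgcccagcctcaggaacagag
Apoa4: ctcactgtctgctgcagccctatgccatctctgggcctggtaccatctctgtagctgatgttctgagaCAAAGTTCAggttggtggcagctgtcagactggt
Apob: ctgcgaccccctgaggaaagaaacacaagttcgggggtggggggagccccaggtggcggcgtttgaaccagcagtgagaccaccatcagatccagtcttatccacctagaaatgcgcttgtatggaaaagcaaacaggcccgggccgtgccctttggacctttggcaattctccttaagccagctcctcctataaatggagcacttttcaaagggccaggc
Fabp1: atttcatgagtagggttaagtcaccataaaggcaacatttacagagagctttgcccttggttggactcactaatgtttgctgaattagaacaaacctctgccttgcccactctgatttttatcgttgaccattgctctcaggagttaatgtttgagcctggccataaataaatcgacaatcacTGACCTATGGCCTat
Fabp2: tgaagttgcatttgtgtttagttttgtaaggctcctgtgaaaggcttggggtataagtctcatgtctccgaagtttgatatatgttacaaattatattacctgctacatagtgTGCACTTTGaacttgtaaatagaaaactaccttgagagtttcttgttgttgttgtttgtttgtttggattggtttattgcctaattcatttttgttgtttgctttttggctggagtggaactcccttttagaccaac
The HNF4-type letters stood in Apoa4 on the plus strand, 182 to 174 bases before the RefSeq start, and in Fabp2 on the minus strand, 137 to 129 bases before it. The direct repeat stood in Fabp1 on the minus strand, 67 to 55 bases before the start. These are matches of letters and not measured sites, and the runs of Apoa1 and Apob hold neither set of letters. Only exact matches were searched for, so other forms of such sites would not be marked in any run.

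The apolipoprotein genes differed widely between mice of the same genotype. Apoa4, whose protein is made by enterocytes during fat absorption, had 2085, 5793, 9741, 11402 and 1073 CPM in dIEC libraries 1, 3, 5, 7 and 9, and 2184, 11111, 5031, 1678 and 9398 CPM in WT libraries 2, 4, 6, 8 and 10. The lowest and the highest library, 10.6-fold apart, were both dIEC females. The libraries fell on either side of a gap, with 6 between 5031 and 11402 CPM and 4 between 1073 and 2184 CPM, and each side held both genotypes and both sexes. Apoc3, whose protein inhibits the clearance of triglyceride-rich particles, had 135, 256, 541, 494 and 81.6 CPM in dIEC and 159, 551, 252, 122 and 433 CPM in WT, in the same order of libraries. It was high in the libraries in which Apoa4 was high and low in the same 4. The SD of log2 CPM over the 10 libraries was 1.28 for Apoa4 and 1.001 for Apoc3, at the 99.5th and 98.6th percentiles of 8443 genes with a mean of at least 10 CPM, whose median SD was 0.28.

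Apoa1, the main protein of HDL and also made by the gut, had 8389, 8710.2, 11306, 16210.2 and 4175 CPM in dIEC and 6130.0, 12223, 7413, 5784 and 10951 CPM in WT. Apob, which gives each chylomicron its single structural protein, had 12393, 12155, 16503, 21681 and 6622 CPM in dIEC and 7504, 17300.2, 9091, 8509 and 16382 CPM in WT. For both genes dIEC female 7 was highest and dIEC female 9 lowest, and WT male 4 and WT female 10 led the WT libraries. Both spread less than Apoa4 (SD of log2 CPM 0.58 each). The ratio of Apoa1 to Apob counts, computed after the values were seen, stayed between 0.630 and 0.748 in dIEC and between 0.668 and 0.817 in WT, whereas the ratio of Apoa4 to Apoa1 ran from 0.249 to 0.862 in dIEC and from 0.290 to 0.909 in WT.

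**Figure D1:**
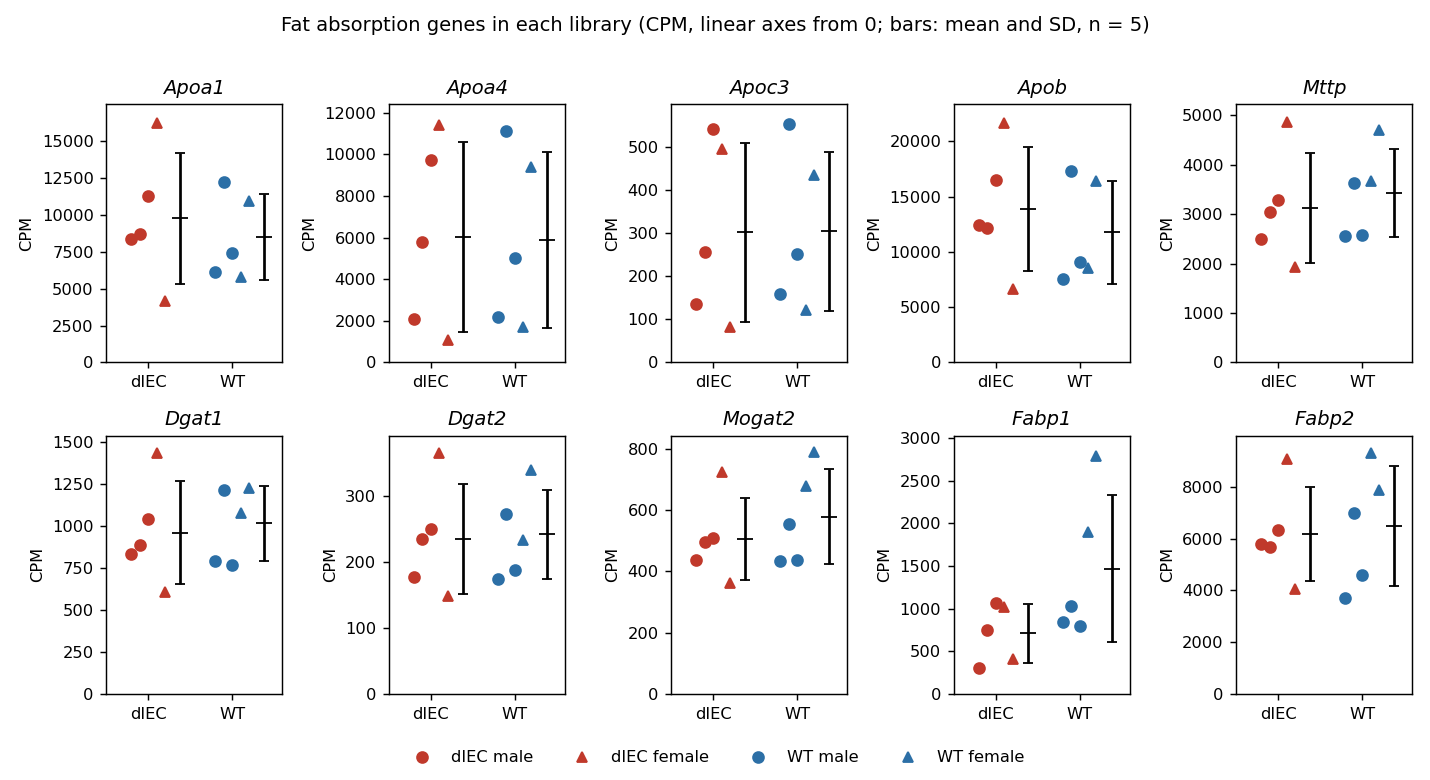
CPM (vertical, linear from 0) of each of the 10 genes in each library, dIEC at left and WT at right, with circles for males, triangles for females and bars for the mean and SD of 5 libraries. The genotypes overlap in every panel, dIEC female 7 and dIEC female 9 lie at the ends for most genes, and in the Fabp1 panel the WT females stand above the other libraries.

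The genes of triglyceride loading and synthesis were steadier. Mttp, needed for any chylomicron to form, had 2486, 3049, 3277, 4870.1 and 1938 CPM in dIEC and 2563, 3637, 2586, 3669 and 4702 CPM in WT. The 2 dIEC females again were the highest and the lowest of all libraries. Mogat2, whose enzyme adds an acyl chain to monoglyceride, had 439, 495, 510, 725 and 364 CPM in dIEC and 433, 555, 437, 680 and 789 CPM in WT. Its highest value was in WT female 10, and its whole range was 2.17-fold, the narrowest of the 10 genes.

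Dgat1 and Dgat2 encode the enzymes that add the last acyl chain. Dgat1 had 832, 888, 1041, 1435 and 604 CPM in dIEC and 792, 1213, 765, 1077 and 1225 CPM in WT. Dgat2 had 178, 236, 250, 366 and 148 CPM in dIEC and 174, 274, 189, 234 and 340 CPM in WT. In both, dIEC female 7 was the highest and dIEC female 9 the lowest library, and the genotypes overlapped. The SD of log2 CPM was between 0.37 for Mogat2 and 0.42 for Mttp and Dgat2, above the median of 0.28 over all genes.

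The genes of the fatty acid binding proteins had different patterns. Fabp2, the form found mainly in intestine, had 5794, 5681, 6344, 9067 and 4047 CPM in dIEC and 3700, 6981, 4592, 9303 and 7890 CPM in WT, with the highest value in WT female 8 and the lowest in WT male 2. Fabp1, the form shared with liver, had 304, 750, 1068, 1025 and 412 CPM in dIEC and 841, 1028, 792, 1903 and 2787 CPM in WT. Both WT females lay above all other libraries, and 3 dIEC libraries lay below all WT libraries. The same 2 WT females stood apart in red blood cell markers (5 of 6 listed, 4 tested), whose summed level was 13.8 to 28.4 CPM in dIEC and 13.2 to 24.1 CPM in WT males, but 0 in WT female 8 and 0.179 CPM in WT female 10. Their part in the Fabp1 values was not tested. Its 9.17-fold range was next to that of Apoa4. The count of Fabp1 over that of Fabp2 was 0.0525, 0.132, 0.168, 0.113 and 0.102 in dIEC and 0.227, 0.147, 0.173, 0.204 and 0.353 in WT. By this ratio, chosen after the values were seen and given with no test, dIEC male 5 lay above WT male 4 and all other dIEC libraries below all WT libraries.

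**Figure D2:**
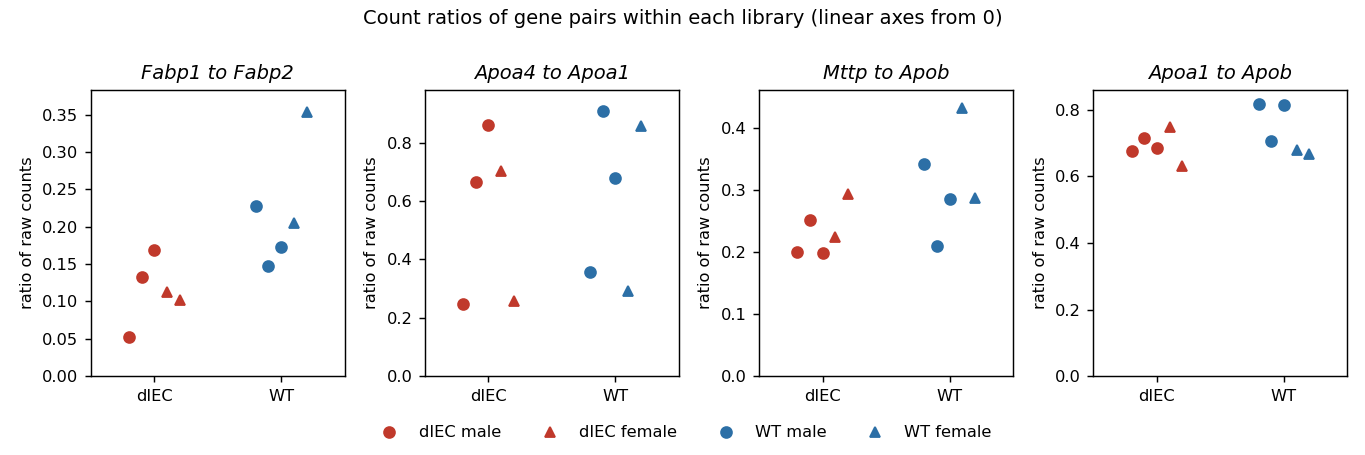
Ratios of raw counts of gene pairs within each library (vertical, linear from 0), dIEC at left and WT at right, with circles for males and triangles for females. The ratio of Fabp1 to Fabp2 runs from 0.0525 to 0.168 in dIEC and from 0.147 to 0.353 in WT, the ratio of Apoa4 to Apoa1 splits within both genotypes, and that of Apoa1 to Apob stays within 0.630 to 0.817.

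The first comparison asked whether loss of the epithelial MHC class II gene went with a different level of these genes. None of the 10 passed the threshold in dIEC against WT (edgeR quasi-likelihood test with sex in the model, adjusted p under 0.05 over 12477 genes, which called 0.016% of all genes), and none separated the 5 dIEC from the 5 WT libraries (0.313% of all genes did). The fitted log2 fold change was positive for 3 genes and negative for 7, with a median of -0.025 against 0.013 over all genes tested. None of them reached an unadjusted p under 0.05 in edgeR, where 2.85% of all genes did, while 1 did in DESeq2 and 1 in limma voom, where 4.09% and 2.9% of all genes did, and neither tool called any.

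Fabp1 had the lowest p of the 10. It averaged 712 ± 347 CPM in dIEC and 1470.1 ± 862 CPM in WT (SD, n = 5 each), a log2 fold change of -0.87 (SE 0.41, 95% interval -1.79 to 0.05, edgeR adjusted p = 0.9999). The unadjusted edgeR p was 0.0606. The value lay between -1.18 and -0.58 when each library was left out in turn, and was -0.33 (SE 0.38) in males alone and -1.70 (SE 0.65) in females alone. Leaving out dIEC female 9 brought it to -0.58, and leaving out WT female 10 to -0.67.

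The other 9 genes lay within 0.24 of 0 on the log2 scale. Apoa4 averaged 6019 ± 4550 CPM in dIEC and 5880 ± 4236 CPM in WT, and its 95% interval of -1.55 to 1.62 does not exclude a change of 2-fold or more either way. Apoc3 averaged 301 ± 208 CPM in dIEC and 304 ± 183 CPM in WT (-0.01, interval -1.28 to 1.26). A 2-fold change either way is not excluded for Apoc3 either. For the genes that follow the intervals were tighter. Apob averaged 13871 ± 5604 CPM in dIEC and 11757 ± 4687 CPM in WT (0.24, -0.58 to 1.06), and Apoa1 9758 ± 4421 CPM in dIEC and 8500.1 ± 2917 CPM in WT (0.20, -0.63 to 1.02). For both of these the upper end lies just above a 2-fold rise (2.09-fold for Apob, 2.03-fold for Apoa1). Mttp averaged 3124 ± 1106 CPM in dIEC and 3432 ± 892 CPM in WT (-0.12, -0.70 to 0.47). Dgat1 averaged 960.0 ± 308 CPM in dIEC and 1015 ± 223 CPM in WT (-0.07, -0.61 to 0.47). Dgat2 lay at 235 ± 83.8 CPM in dIEC and 242 ± 67.2 CPM in WT (-0.03, -0.59 to 0.53). Each of these differences was smaller than the SD within either genotype. Mogat2, at 506 ± 135 CPM in dIEC and 579 ± 155 CPM in WT, had the tightest interval (-0.16, -0.62 to 0.29), and Fabp2, at 6187 ± 1824 CPM in dIEC and 6493 ± 2319 CPM in WT, lay at -0.02 (-0.65 to 0.60). On counts simulated for this comparison 2.98% of true 1.5-fold changes, 40.3% of true 2-fold changes and 87.9% of true 4-fold changes were found, and differences of the size fitted here were below what it usually finds. The changed genes were drawn at random from all genes tested, and each gene was simulated independently of the others. These shares therefore do not hold for genes as variable as Apoa4 and Apoc3, for which none was computed.

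**Figure D3:**
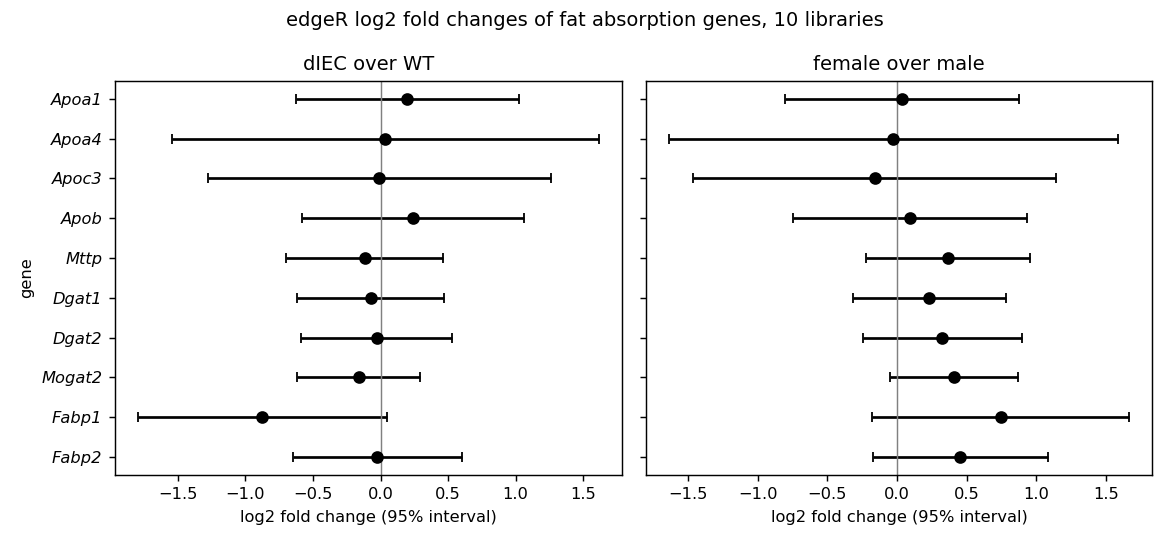
Fitted edgeR log2 fold changes (points) with 95% intervals (bars) of the 10 genes, dIEC over WT at left and female over male at right, 10 libraries. Every interval includes 0, those of Apoa4 and Apoc3 are the widest, and Fabp1 lies farthest from 0 in both panels, at -0.87 and 0.75.

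Females were then set against males within the same fit. No gene of the 10 was called, where 0.0401% of all genes were, and none separated the 4 female from the 6 male libraries (0.946% of all genes did). The log2 fold change was positive for 8 genes and negative for 2, with a median of 0.28 against 0.04 over all genes. With the proliferation score described below held constant, the median of the 10 was -0.0150. Mogat2 averaged 640 ± 189 CPM in females and 478 ± 49.9 CPM in males (0.41, SE 0.21), and Fabp2 averaged 7577 ± 2433 CPM in females and 5515 ± 1191 CPM in males (0.46, SE 0.28; SD, n = 4 and n = 6). No unadjusted edgeR p was under 0.05, where 4.44% of all genes had one. Fabp1 averaged 1532 ± 1036 CPM in females and 797 ± 273 CPM in males (0.75, SE 0.42). In a fit of WT alone, where females averaged 2345 CPM and males 887 CPM, it was 1.40 (SE 0.30, edgeR adjusted p = 0.763). In dIEC alone, females averaged 719 CPM and males 707 CPM (-0.02, SE 0.60). The difference of these differences, the interaction of genotype and sex, was -1.38 for Fabp1 (SE 0.75). The 1 gene called for it over the whole table was the red cell gene Hbb-bs, at or near 0 in both WT females. It passed the threshold for none of the 10 genes, where 0.00801% of all genes were called, and had an unadjusted edgeR p under 0.05 for none, where 2.1% of all genes had one. With only 2 females per genotype the interaction test recovered 22.7% of 4-fold changes in simulation.

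Markers of other epithelial cells were read in the same fit, and no goblet, Paneth or proliferation gene was called there. All 10 goblet cell genes and all 9 Paneth cell genes had negative log2 fold changes in females against males (medians -1.05 and -1.07), and 25 of 26 proliferation genes did (median -0.25), although the lowest and the highest proliferation scores were both in females. All 10 enteroendocrine genes (median -0.41) and 9 of 10 crypt stem genes (-0.40) were negative too, while all 6 tuft cell genes were positive (0.58). In a fit that held the proliferation score constant, 659 genes (5.28%) were called between the sexes, among them Apoa1 (-0.50, SE 0.12, edgeR adjusted p = 0.0380), against 0.03 without the score. In that fit Apoa4 lay at -1.26 (SE 0.46) and Apoc3 at -1.01 (SE 0.34), against -0.03 and -0.16 without the score, and Apob at -0.38 (SE 0.12), none of them called. An unadjusted edgeR p under 0.05 was found there for 4 of the 10 genes and for 26% of all genes. With the score held constant in the genotype comparison, none of the 10 was called, where 0.0321% of all genes were. An unadjusted edgeR p under 0.05 was found there for 1 of the 10 and for 2097 of 12477 genes. The 1 was Apob (0.32, SE 0.11, edgeR adjusted p = 0.180). Whether the score stands for sampling of crypt and villus or for a state of the cells was not tested, and in bulk samples fewer cells of a type and less RNA per cell cannot be told apart.

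Across the 10 libraries every one of the 45 gene pairs was positively correlated on the log2 CPM scale. The median Pearson r was 0.812, with a range of 0.330 to 0.990, and 33 pairs by Pearson and 27 by Spearman had a Benjamini-Hochberg adjusted permutation p under 0.05 over the 45 pairs. Within the 6 males the median was 0.846, without the 2 libraries farthest from the median of each first gene 0.761, and after sex and genotype were taken out 0.884. Scaling by library totals alone lowered it to 0.650 with all 45 pairs still positive. The scaling factors ran opposite to most of the genes. They were lowest, at 0.812, for dIEC female 7, where most of the genes were highest. They were highest, at 1.21, for dIEC female 9, where most were lowest.

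Over all 10 libraries the correlations were higher within the apolipoproteins and within the other genes than between them. The 6 pairs among the apolipoproteins had a median r of 0.919 and the 15 pairs among the other genes 0.878, while the 24 pairs between them had 0.703. This order was not seen in the 6 males, where the medians were 0.837 and 0.811 within and 0.878 between. After sex and genotype were taken out they were 0.934 and 0.893 within and 0.864 between. Apoa4 and Apoc3 were the closest pair (r = 0.990, rho = 0.964, adjusted permutation p = 0.000270 and 0.000900, n = 10), with 0.980 after dIEC 9 and WT 8 were left out and 0.977 in males. Since the Apoa4 levels fall on 2 sides of a gap, r was also taken within the 6 libraries above it, where it was 0.967. Apoa1 and Apob followed each other as closely (r = 0.978, rho = 0.976, adjusted permutation p = 0.000375 and 0.000900), although they lie on different chromosomes, whereas Apoa1 and its neighbour Apoa4 had r = 0.923.

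Among the genes of triglyceride synthesis, the closest pairs by Pearson all held Mttp. It correlated with Dgat2 at r = 0.979, with Dgat1 at 0.970 and with Mogat2 at 0.969 (adjusted permutation p = 0.000270 each; rho 0.915, 0.939 and 0.952). Without dIEC 7 and dIEC 9 these were 0.961, 0.932 and 0.959. By rank Dgat1 and Mogat2 were closer than any of these pairs (rho = 0.964), and in the 6 males Dgat2 and Mogat2 (r = 0.984) were closer than Mttp and Dgat1 (0.947). Fabp1 had the weakest relations. Its r was 0.330 with Apob and 0.334 with Apoa1 (adjusted permutation p = 0.353 each), and its closest partner was Mogat2 at 0.83. Taking out sex and genotype brought Fabp1 nearer to the others, at 0.652 with Apob and 0.638 with Apoa1.

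**Figure D4:**
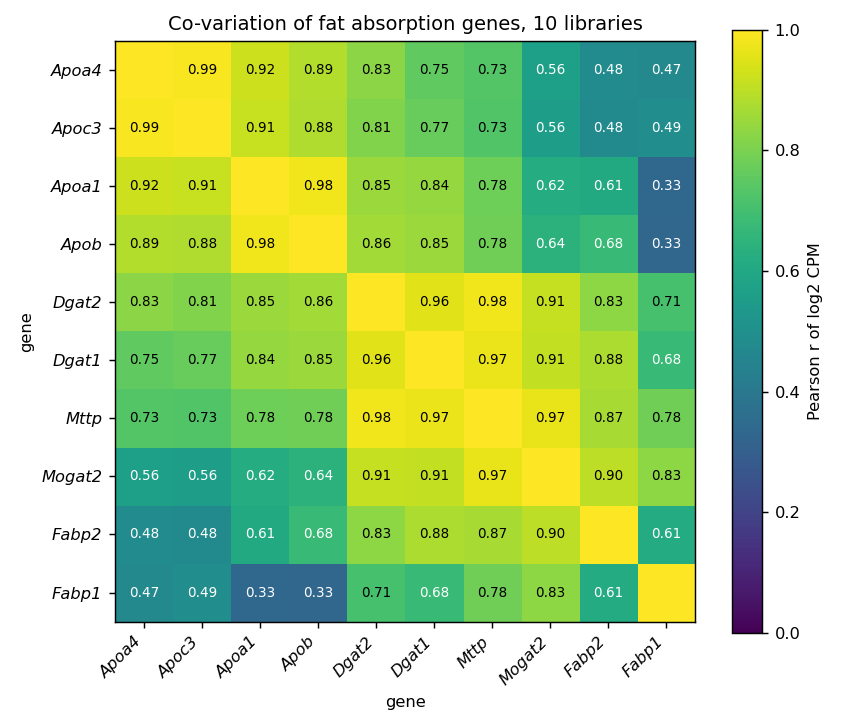
Pearson r of log2 CPM over the 10 libraries for each pair of the 10 genes (colour and printed value, scale 0 to 1). The 4 apolipoprotein genes form a bright block at upper left (0.88 to 0.99), the synthesis genes with Mttp another, and the Fabp1 row is darkest against Apoa1 and Apob (0.33).

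How the genes ran with the maturity of the sampled epithelium was measured with marker lists. The mean log2 CPM of 16 mature villus enterocyte genes followed Apob (r = 0.980, rho = 0.988, adjusted permutation p = 0.000400 and 0.00100 over 40 relations) and Apoa1 (r = 0.978, rho = 0.964) most closely. Apoa4 (0.932) and Apoc3 (0.922) came next, and Mogat2 (0.645, adjusted permutation p = 0.0746), Fabp2 (0.649) and Fabp1 (0.383) did not pass by Pearson, although Mogat2 did by Spearman (rho = 0.758, adjusted permutation p = 0.0298). Without dIEC 7 and dIEC 9, Apob kept 0.967 and Apoa1 0.977, while Mttp fell to 0.563 and Mogat2 to 0.364. With library totals Apob kept 0.960 and Apoa1 0.957, while Mttp fell to 0.508 and Mogat2 to 0.172. The list of proliferation genes ran the opposite way, led by Dgat2 (r = -0.948, rho = -0.939) and Dgat1 (r = -0.948, rho = -0.964; adjusted permutation p = 0.000500 and 0.000400 by Pearson), and 9 of the 10 genes had an adjusted p under 0.05 by both measures. Fabp1 was the exception (r = -0.576, adjusted permutation p = 0.114). In the 6 males Dgat1 led at -0.960, while Dgat2 was at -0.799. After sex and genotype were taken out Apob (-0.987) and Apoa1 (-0.982) led. With library totals Dgat2 kept -0.879 and Dgat1 -0.871, while Mogat2 moved to -0.576 and Fabp2 to -0.594.

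Fabp1 ran more closely with markers of the proximal small intestine. The mean of 9 such genes, among them Lct, Gata4 and Onecut2, correlated with Fabp1 at r = 0.866 and rho = 0.903 (adjusted permutation p = 0.00750 and 0.00504, n = 10), at 0.929 in the 6 males and at 0.827 with library totals. Without dIEC 1 and dIEC 9, the libraries with the lowest proximal means, r was 0.653. Apoc3 (0.792), Mttp (0.777) and 4 further genes also passed with this list, and Fabp2 (0.514) did not. With library totals those that passed besides Fabp1 fell to between 0.425 for Apoa4 and 0.510 for Apoc3. The mean of 7 distal genes, such as Fabp6 and Slc10a2, passed for no gene, with r = -0.598 for Fabp1 (adjusted permutation p = 0.104). This value for Fabp1 was -0.922 in the 6 males and 0.058 without dIEC 1 and dIEC 9. With library totals, where no test was run, r with the distal mean ran from -0.145 for Fabp2 to -0.831 for Apoc3. It was -0.775 for Apoa4 and -0.656 for Fabp1 on that scale. The proximal means were 6.11, 6.54, 6.99, 6.74 and 6.13 in dIEC and 6.70, 7.02, 6.53, 6.72 and 7.15 in WT on the log2 CPM scale. The dIEC libraries with the least Fabp1 were also those with the lowest proximal means, and WT female 10 was highest in both. WT female 8, however, had 1902.5 CPM of Fabp1 at a proximal mean of 6.72. WT male 2 and dIEC female 7, with means close to it, had 841 and 1025 CPM. The part of position along the gut in the Fabp1 values was not tested.

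**Figure D5:**
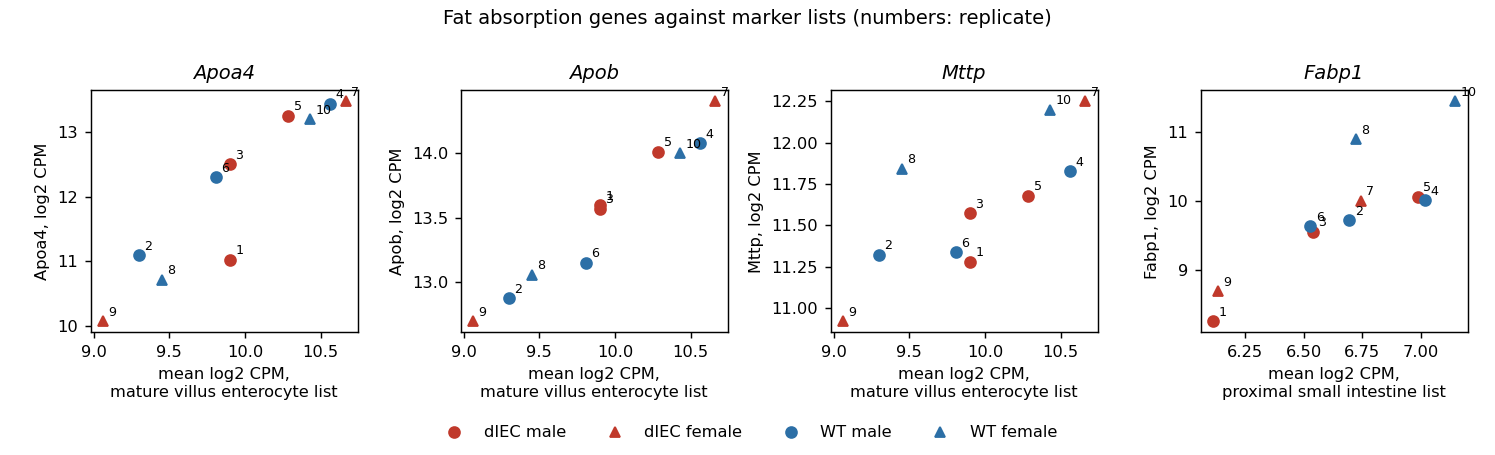
Log2 CPM (vertical) of Apoa4, Apob and Mttp against the mean log2 CPM of the mature villus enterocyte list, and of Fabp1 against that of the proximal small intestine list (horizontal), 1 numbered point per library, circles for males and triangles for females. Apob lies near a line (r = 0.980), Apoa4 less so (0.932), and Mttp is high in WT female 8 for its maturity mean (0.786). Fabp1 is mostly higher where the proximal mean is higher (0.866), with WT female 8 above libraries of similar mean.

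Outside the family, the tested genes most like each member were looked up among those with a mean of at least 10 CPM (8433 genes compared, Pearson r of log2 CPM, 10 libraries). Apoa1 was followed most closely by the creatine transporter gene Slc6a8 (0.997), then Dgkq (0.990) and Src (0.990), and Apob by Lrrc66 (0.992), Rnf167 (0.989) and Pdzk1 (0.988), which encodes a scaffold of brush border transporters. Such company was common, since 12.7% of all compared genes had an r of at least 0.9 with Apoa1 and 11.3% with Apob. Apoa4 was closest to Creb3l2 (0.985), Ndst1 (0.979) and the mature enterocyte gene Enpp3 (0.974). Apoc3 was closest to the fatty acid translocase gene Cd36 (0.981), Creb3l2 (0.979) and the lactase gene Lct (0.972).

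The synthesis genes shared partners among themselves. Zdhhc5 led for both Mttp (0.994) and Mogat2 (0.986), and the alanine aminotransferase gene Gpt was second for both Mttp (0.990) and Dgat2 (0.984). Cdr2 (0.980) came next for Mttp, and Rmdn3 (0.980) and the cytosolic aconitase gene Aco1 (0.980) followed for Mogat2. Dgat1 was closest to the malonyl-CoA decarboxylase gene Mlycd (0.986), Tmbim6 (0.981) and March8 (0.980), and Dgat2 to the peroxisome assembly gene Pex16 (0.988) and, ranked after Gpt, Sulf2 (0.984). Fabp1 was closest to the ferritin light chain gene Ftl1 (0.965), the glycolytic gene Tpi1 (0.963) and Pgrmc2 (0.962), and Fabp2 to Emp1 (0.967), Pi4k2b (0.967) and Srxn1 (0.962). An r of at least 0.9 with Fabp1 was reached by 0.735% of the compared genes.

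The rest of the pathway was read from lists of genes upstream and downstream of the family, and none of their genes was called by genotype, sex or interaction. Of 11 genes of fatty acid uptake and activation, 2 had positive and 9 negative log2 fold changes in dIEC against WT (median -0.05). Slc27a4, a fatty acid transport protein with acyl-CoA synthetase activity, averaged 1711 ± 817 CPM in dIEC and 1692 ± 554 CPM in WT, and Acsl5, an acyl-CoA synthetase, 1405 ± 352 CPM in dIEC and 1821 ± 768 CPM in WT. Of 12 genes of the glycerol phosphate route, 3 were positive and 9 negative (median -0.10), with Gpd1 at 457 ± 96.9 CPM in dIEC and 583 ± 162 CPM in WT and Lpin2 at 419 ± 154 CPM in dIEC and 382 ± 209 CPM in WT.

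Chylomicron lipidation and export held 15 tested genes, of which 3 were positive and 12 negative in dIEC against WT (median -0.16), and all 15 were positive in females against males (median 0.29). P4hb, which encodes protein disulfide isomerase, the partner subunit of the transfer protein, averaged 2177 ± 481 CPM in dIEC and 2805 ± 643 CPM in WT. Surf4, an export receptor for lipoproteins, averaged 419 ± 99.9 CPM in dIEC and 499 ± 90.6 CPM in WT. Of 12 lipid droplet and lipolysis genes, 5 were positive and 7 negative by genotype (median -0.02), with Plin3 at 530.1 ± 208 CPM in dIEC and 509 ± 109 CPM in WT and Cideb at 216 ± 79.9 CPM in dIEC and 218 ± 62.0 CPM in WT.

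Of 7 listed genes of other apolipoproteins and of Apob mRNA editing, 5 passed the filter, 3 positive and 2 negative by genotype (median 0.01). Rbm47 and A1cf, cofactors of the editing that yields the short intestinal form of the protein, averaged 433 ± 133 and 215 ± 64.7 CPM in dIEC and 412 ± 95.03 and 185 ± 47.5 CPM in WT. Of 14 regulators of fat absorption, 7 were positive and 7 negative (median 0.02). Hnf4a, whose protein is known to bind HNF4-type letters such as those marked above in Apoa4 and Fabp2, averaged 948 ± 176 CPM in dIEC and 880.3 ± 84.9 CPM in WT, and Hnf4g averaged 645 ± 120 CPM in dIEC and 702 ± 150 CPM in WT. Hnf4a spanned 1.55-fold over the 10 libraries, against 10.6-fold for Apoa4 and 2.51-fold for Fabp2. These are mRNA levels, and the part of HNF4A in the levels of Apoa4 and Fabp2 was not tested.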

How the data were processed

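Total RNA from sorted ileal epithelial cells of 10 mice was depleted of ribosomal RNA and made into stranded libraries, per the labels' protocols. The authors deposited 1 table of raw counts per gene, not normalized. Per the submitters' processing notes the aligner was Novoalign and the build mm10. The sources used here name no counting program, annotation or strand setting. Every gene in the table (13932) has 10 counts or more in some library. Pairs of libraries within a genotype differed far beyond sampling noise (chi-square per degree of freedom 17.0 to 163), so each counts as 1 replicate. The labels do not say whether the mice were littermates, so p-values measure the spread between these animals.

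edgeR 4.0.16 in R 4.3.3 was fitted to the whole table (filterByExpr, TMM factors, robust quasi-likelihood test, sex plus genotype; their product for the interaction), with Benjamini-Hochberg adjustment over 12477 genes and a threshold of 0.05. Standard errors were taken as |log2 fold change| divided by the root of the F statistic. CPM values were computed on TMM-adjusted library sizes; for log2 CPM the prior count was 2. Correlations carry two-sided permutation p-values (100000 resamples), adjusted over 45 gene pairs or over 40 relations to marker lists. Exon lengths and loci come from GENCODE M21 on GRCm38 (98.5% of identifiers matched); exon lengths count alternative exons too. Totals of 9174101 to 13484363 counts make counting error small beside the spread between mice. The fits were tested on simulated counts of 12477 genes, 200 of them, drawn at random, changed. Each gene was simulated independently, with no axis shared between genes.

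The family and all lists were chosen with earlier results of these data known. Genes were named by rule: the 10 family genes, H2-Ab1, the 2 most abundant genes of each pathway list, and the 3 genes nearest to each family gene; a few marker genes are named besides as examples of their lists. Alternatives were other size factors, library totals, DESeq2 1.42.0, limma voom (limma 3.58.1), a looser threshold of 0.1, other filters and covariates, single sexes or genotypes, and each library left out in turn. The count ratios and the correlations within the 6 libraries with more than 5000 CPM of Apoa4 were added after the data were seen.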

Additional observations from a re-analysis of the deposited data

How the results depend on the processing

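No paired analysis was run because the labels state no pairing. They number the libraries 1 to 10, odd in dIEC and even in WT. Each odd number and the next even number are of the same sex. Whether such neighbours were paired or handled together is not stated. When a single setting was changed, leave-one-out aside, 372 values kept their direction and side of the threshold or, where no test applies, moved by less than the spread between libraries or their interval; 26 fold changes of single genes changed sign and 9 counts moved. Among the 372, the median genotype log2 fold change of the 10 genes turned to 0.0124 in males only and 0.0137 without dIEC 7 and dIEC 9, against -0.025, and the median sex log2 fold change to -0.0150 with the proliferation score, against 0.28. No family gene was called in any genotype or interaction fit, and in the sex fits the proliferation score alone called 1, Apoa1.

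The count of all genes called by genotype was 4 with DESeq2, 4 with the proliferation score and 0 in females only; by sex it was 13 with DESeq2 and 659 with the score; for the interaction it was 0 with library totals, 18 with DESeq2 and 2 with limma voom. Signs of the genotype log2 fold change turned for Apoa4 (-0.0697 with limma voom, -0.0460 in males only, -0.0555 without dIEC 7 and dIEC 9), Apoc3 (0.0974 with the score, 0.0543 in females only), Dgat2 (0.00523 with the score, 0.0614 in males only, 0.0608 without dIEC 7 and dIEC 9), Mttp (0.00537 in males only, 0.00603 without both), Mogat2 (0.0195 in males only, 0.0214 without both) and Fabp2 (0.228 in males only, 0.224 without both). Those of the sex log2 fold change turned for Apoa1 (-0.0876 with library totals, -0.0898 with limma voom, -0.499 with the score, -0.0362 in WT only), Apob (-0.0125 with library totals, -0.00730 with limma voom, -0.384 with the score), Dgat1 (-0.0371 with the score), Apoa4 (0.0388 in dIEC only) and Fabp1 (-0.0155 in dIEC only). The interaction turned for Apoc3 (-0.0232 with library totals) and Apoa1 (-0.0572 with limma voom). The cause was not tested.

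Leaving out each library in turn, the genotype log2 fold change spanned -0.19 to 0.40 for Apoa1, -0.65 to 0.46 for Apoa4, -0.51 to 0.35 for Apoc3, -0.061 to 0.48 for Apob, -0.31 to 0.071 for Mttp, -0.27 to 0.10 for Dgat1, -0.23 to 0.15 for Dgat2, -0.28 to 0.0073 for Mogat2, -1.18 to -0.58 for Fabp1 and -0.16 to 0.18 for Fabp2. The sex log2 fold change spanned -0.43 to 0.29 for Apoa1, -0.85 to 0.33 for Apoa4, -0.77 to 0.15 for Apoc3, -0.27 to 0.35 for Apob, 0.13 to 0.60 for Mttp, -0.011 to 0.44 for Dgat1, 0.079 to 0.55 for Dgat2, 0.27 to 0.61 for Mogat2, 0.47 to 1.09 for Fabp1 and 0.29 to 0.70 for Fabp2. The interaction spanned -1.15 to 0.81 for Apoa1, -2.31 to 1.95 for Apoa4, -1.72 to 1.28 for Apoc3, -1.19 to 0.52 for Apob, -1.12 to 0.21 for Mttp, -0.93 to 0.32 for Dgat1, -1.02 to 0.29 for Dgat2, -1.04 to -0.041 for Mogat2, -2.19 to -0.87 for Fabp1 and -1.31 to -0.15 for Fabp2. The medians of the 10 genes spanned -0.28 to 0.16 by genotype, 0.03 to 0.50 by sex and -1.17 to 0.31 for the interaction, and the interaction called 0 to 1 of all genes. By genotype, every gene but Fabp1 changed sign without at least 1 library.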
